A study of Arabidopsis thaliana with 6 samples.

Results

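Genes of seed oil mobilisation were examined in germinating Arabidopsis thaliana seeds of the scl30a-1 line and of the wild type (WT, Col-0). The 38 loci were listed by locus identifier for their place in the pathway, from the lipases that open the oil body to the enzymes that feed sugar synthesis, together with the carriers, import factors and antioxidant enzymes of the peroxisome. All 38 were found among the 32389 genes with counts in the deposited table, and all 38 passed the filter on low counts, which kept 18736 genes. The scl30a-1 libraries (3) carried a mutation in SCL30A, a gene for a serine/arginine-rich splicing factor, in the Columbia background, and the WT libraries (3) were unmutated Col-0. Both genotypes were kept in the cold for 3 days, moved to continuous white light at 21 degrees Celsius and collected at 18 h. Poly(A) RNA was sequenced from samples of 50 mg of seeds, so each library pools many seeds, and the mutation rests on a single line. The labels do not give the type of mutation, the seed lot or the harvest, so a difference of seed lot and the genotype cannot be told apart. The design text calls the 3 samples of a genotype biological. The libraries of a genotype carry the letters a, b and c, and values of single libraries are given in that order.

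Arabidopsis seeds store oil as triacylglycerol in oil bodies. After germination begins, lipases release fatty acids, which enter the peroxisome and are cut to acetyl-CoA by beta-oxidation. The glyoxylate cycle then turns acetyl-CoA into organic acids, and phosphoenolpyruvate carboxykinase diverts these to sugar until the seedling can photosynthesise.

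The total counts ranged from 77817191 to 85605647 in scl30a-1 libraries and from 70687361 to 84356746 in WT libraries. SCL30A itself (AT3G13570) had 478, 440 and 458 counts in the scl30a-1 libraries, against 6890, 7290 and 8425 counts in the WT libraries. The log2 fold change (scl30a-1 over WT throughout) of -4.07, with an SE of 0.0498 and an edgeR adjusted p = 4.45e-11, leaves SCL30A low in every library labelled scl30a-1 and high in every library labelled WT. The labelled tissue was checked with 5 seed genes for oleosins and storage proteins (OLE1, OLE2, CRA1, CRC and SESA1), whose summed level was 5429 to 6069 RPKM in scl30a-1 libraries and 702.4 to 881 RPKM in WT libraries. The RPKM was computed here from the counts, as counts per kilobase of annotated exon and per 1e+06 counts of the library. All 5 were higher in scl30a-1, with log2 fold changes from 2.59 to 4.18. Of 3 endosperm markers, EPR1 and MAN7 were higher and EXPA2 was not called, and their summed level was 1675 to 1742 RPKM in scl30a-1 libraries, against 1380.0 to 1471 RPKM in WT libraries. Of 4 leaf markers, LHCB1.3, CAB3 and RCA were lower in scl30a-1, and RBCS1A was not called. CAB3 rested on 6 to 25 counts per library and LHCB1.3 on 40 to 91, and words shared with other genes were not computed for the markers. The summed leaf level was 328.4 to 395.7 RPKM in scl30a-1 libraries and 382.4 to 428 RPKM in WT libraries, which overlap. Most of it was RBCS1A, at 301.2 to 366.2 RPKM in scl30a-1 libraries and 346.4 to 385.3 RPKM in WT libraries. Summed root markers reached at most 0.0159 RPKM and pollen markers at most 0.0855 RPKM in any library. In RNA of whole seeds, fewer cells of a type and less RNA per cell cannot be told apart, and the part of these marker differences in the results was not tested.

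Oil mobilisation transcripts were among the most abundant of these seeds in both genotypes. The 38 genes together held 4.53% to 4.80% of all counts in scl30a-1 libraries and 4.54% to 4.89% in WT libraries. ICL, which encodes the glyoxylate cycle enzyme isocitrate lyase, ranked 1 per length in each of the 6 libraries, among the 31772 genes with an annotated exon length. MLS, which encodes malate synthase, ranked 3 in each, and PCK1, which encodes phosphoenolpyruvate carboxykinase, ranked between 4 and 6. In every library 7 members stood among the 100 highest genes by RPKM, and 19 among the 1000 highest. The members spanned more than 3 orders of magnitude, with KAT5, PMDH2, KAT1 and SDP1L at the low end (ranks 15363, 12712, 5029 and 5133 by mean RPKM over all libraries). ICL averaged 5555 RPKM in scl30a-1 and 5914 RPKM in WT, and KAT5 averaged 1.04 RPKM in scl30a-1 and 1.38 RPKM in WT.

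**Figure D1:**
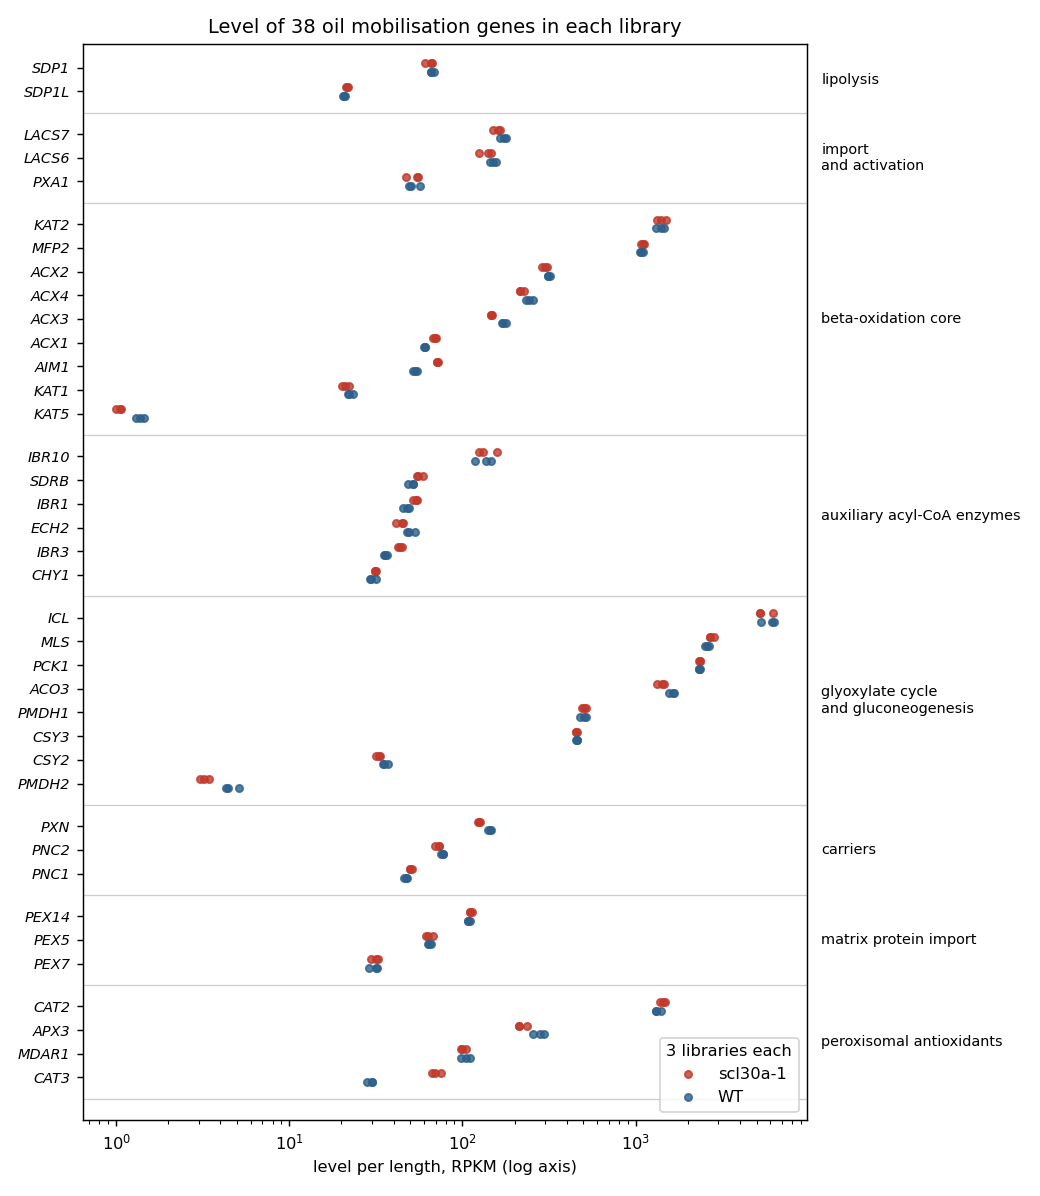
Level per length (RPKM, log axis) of the 38 genes in each of the 3 scl30a-1 libraries (red, upper row of each gene) and the 3 WT libraries (blue, lower row), grouped by step. ICL is the highest gene and KAT5 the lowest, and for most genes the points of both genotypes lie close together beside the spread between genes.

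Of the 38 genes, 12 had an edgeR adjusted p under 0.05 and are named called here, where 41.7% of all genes tested were called. Of these, 7 were higher in scl30a-1 (21.9% of all genes tested were) and 5 were lower (19.7% of all genes tested were). The higher genes were CAT3, AIM1, IBR3, ACX1, IBR1, SDRB and PNC1, and the lower genes were PMDH2, KAT5, APX3, ACX3 and PXN. Only CAT3 was called with a change of at least 1.5-fold, a size that 12.2% of all genes tested reached (6.12% higher and 6.11% lower). The median log2 fold change was 0.05 over the members and 0.00274 over all genes tested, and the median absolute value was 0.10 for the members and 0.17 for all genes tested. Of the 850 genes tested at or above the median abundance of the members, 27.9% were called, with a median absolute log2 fold change of 0.11. These 850 genes are a background for the more abundant members only, not for all 38. For 36 of the 38 members the 95% interval of the fold change lay within 1.5-fold in both directions, as it did for 73% of all genes tested and for 92.7% of those 850 genes. The exceptions were CAT3 and PMDH2, and the interval of AIM1 reached 0.58 on the log2 scale, just inside the limit of 1.5-fold. The libraries of the genotypes did not overlap for 20 members, 12 higher and 8 lower in scl30a-1, where 52.1% of all genes tested had no overlap. The balance of 7 higher and 5 lower depended on the scaling: it was 6 and 8 without composition scaling and 4 and 11 with upper-quartile scaling. Of all genes tested, 41.1% and 43.9% were called in these 2 fits. Leaving out WT library b reduced the lower calls to 2, and leaving out scl30a-1 library a reduced them to 3. The share of all genes tested that was called also fell there, to 30.9% and 32.7%.

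**Figure D2:**
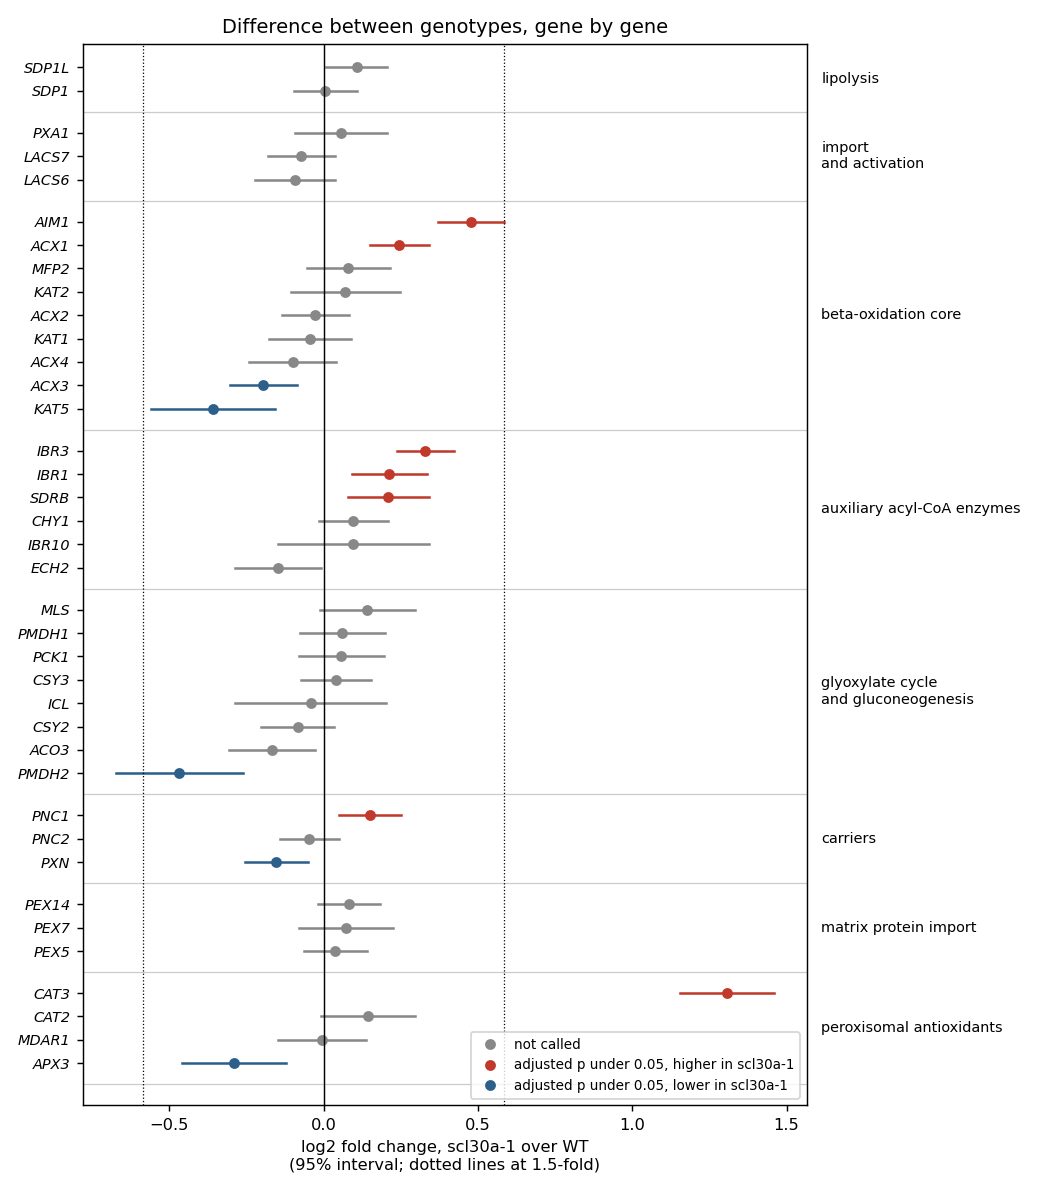
Log2 fold change (scl30a-1 over WT, points) with its 95% interval (lines) for each of the 38 genes, grouped by step; red and blue mark genes called higher and lower in scl30a-1, grey marks genes not called, and dotted lines stand at 1.5-fold. CAT3 lies at 1.31, while the other 37 points lie between -0.47 and 0.48.

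SDP1 and SDP1L, the lipases among the members, were not called. Of the genes listed under lipolysis outside the members, AT3G14360 was called higher (log2 fold change 0.31, edgeR adjusted p = 0.000662). The AT3G14360 value is uncertain, since 15.1% of its sequence words also occur in AT3G02925. It overlaps AT3G02925 and AT3G14362 on the opposite strand, and the use of strand in counting was not stated. CGI58 was not called (0.14). SDP1 (AT5G04040, chromosome 5 from 1089342 to 1093204, TAIR10.1), the main triacylglycerol lipase of the germinating seed, had 20741, 18068 and 19089 counts in the scl30a-1 libraries, against 16995, 18358 and 21169 counts in the WT libraries. Scaled to library size by TMM, this was 241.2 ± 5.67 CPM in scl30a-1 and 240.3 ± 2.90 CPM in WT (SD, n = 3 each), and the libraries overlapped. Its log2 fold change was 0.01 (95% interval -0.10 to 0.11; edgeR adjusted p = 0.93). Its close relative SDP1L had a log2 fold change of 0.11 (95% interval 0.01 to 0.21, edgeR adjusted p = 0.0804), and its 3 scl30a-1 libraries all lay above the WT libraries.

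Entry into the peroxisome and activation gave the same picture of small, uncalled differences. PXA1 (AT4G39850, chromosome 4), the ABC transporter that carries fatty acids or their CoA esters into the peroxisome, had 25412, 20232 and 22861 counts in the scl30a-1 libraries, against 18568, 20507 and 25614 counts in the WT libraries. It averaged 285 ± 19.0 CPM in scl30a-1 and 274 ± 18.3 CPM in WT (SD, n = 3 each), with overlapping libraries and a log2 fold change of 0.06 (95% interval -0.09 to 0.20, edgeR adjusted p = 0.524). LACS6 and LACS7, the peroxisomal synthetases that join fatty acids to CoA, had log2 fold changes of -0.09 and -0.07. Neither was called.

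In the core of beta-oxidation, 4 of 9 genes were called, 2 higher and 2 lower, where 41.7% of all genes tested were called. AIM1 encodes the less abundant of the pair of multifunctional proteins that hydrate and oxidise the acyl chain. It had 194.5, 202.7 and 194.6 CPM in the scl30a-1 libraries, against 137.9, 147.6 and 139.8 CPM in the WT libraries. All scl30a-1 libraries were thus above all WT libraries, with a log2 fold change of 0.48 and an SE of 0.0479 (edgeR adjusted p = 3.6e-05). AIM1 overlaps AT4G29000 on the opposite strand, without shared 36-base words, and the use of strand in counting was not stated. MFP2, the abundant partner, had a log2 fold change of 0.08 (95% interval -0.05 to 0.21) and was not called.

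Among the acyl-CoA oxidases, which take the first oxidation step and release hydrogen peroxide, ACX1 was higher and ACX3 lower in scl30a-1. ACX1, which acts on medium to long chains, had 184.0, 184.7 and 180.9 CPM in the scl30a-1 libraries, against 153.8, 157.3 and 152.6 CPM in the WT libraries (log2 fold change 0.25, edgeR adjusted p = 0.00143). ACX3, which acts on medium chains, had a log2 fold change of -0.19 (edgeR adjusted p = 0.01). The ACX3 value is uncertain, since 17.6% of its 36-base words also occur in AT3G06690 or ACX6, and its call was lost without WT library b (adjusted p = 0.0612). The long-chain enzyme ACX2 and the short-chain enzyme ACX4 were not called (-0.03 and -0.10).

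The thiolases close each round by releasing acetyl-CoA. KAT2, by far the most abundant of them, had 2841, 3371 and 3032 CPM in the scl30a-1 libraries, against 2971, 3089 and 2739 CPM in the WT libraries. These ranges overlapped, and the log2 fold change of 0.07 (95% interval -0.10 to 0.25) was not called, nor was that of KAT1 (-0.04). KAT5 was lower in scl30a-1 (log2 fold change -0.36, edgeR adjusted p = 0.0102) on 193 to 225 counts in scl30a-1 libraries and 230 to 289 counts in WT libraries. KAT5 shares 6.25% of its words with the overlapping gene AT5G48870.

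Among the auxiliary acyl-CoA enzymes, 3 of 6 genes were higher and 0 lower in scl30a-1, where 21.9% of all genes tested were higher and 19.7% lower. IBR3 and IBR1, which are needed for the peroxisomal conversion of indole-3-butyric acid to auxin, were both higher. IBR3 had 132.7, 131.2 and 130.4 CPM in the scl30a-1 libraries, against 104.2, 104.1 and 105.4 CPM in the WT libraries. The libraries of each genotype were close together and well apart from the other genotype, with a log2 fold change of 0.33 and an SE of 0.0415 (edgeR adjusted p = 0.000166). IBR3 overlaps AT3G06820 on the opposite strand. IBR1 had a log2 fold change of 0.21 (edgeR adjusted p = 0.0112) and SDRB, a relative of dienoyl-CoA reductases, also had 0.21 (edgeR adjusted p = 0.0168). Both calls were lost with upper-quartile scaling (adjusted p = 0.0524 for IBR1 and 0.0704 for SDRB), and that of SDRB also without WT library c (0.0678). IBR10 and ECH2, which act in the same auxin-forming route, were not called (0.10 and -0.15), and neither was CHY1 (0.10), a hydrolase of valine breakdown. ECH2 shares 19.3% of its words with AT1G76140, and SDRB shares 9.62% of its words with AT1G36580 or AT2G07640.

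The glyoxylate cycle and gluconeogenesis held the highest transcripts of the set. Of these 8 genes 1 was called, PMDH2, where 41.7% of all genes tested were called. Those averaging 1000 CPM or more (ICL, MLS, PCK1, ACO3 and PMDH1) were not called, where 22.4% of all genes tested at that level were. ICL (AT3G21720, chromosome 3 from 7652487 to 7656053, minus strand, TAIR10.1) had 992218, 1107787 and 896803 counts in the scl30a-1 libraries, against 964185, 1059466 and 986004 counts in the WT libraries. It averaged 12525 ± 1630.1 CPM in scl30a-1 and 12885 ± 1348 CPM in WT (SD, n = 3 each). The lowest library was a WT one and the highest a scl30a-1 one, so the groups overlapped, with a log2 fold change of -0.04 (95% interval -0.29 to 0.20, edgeR adjusted p = 0.79).

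MLS (AT5G03860, chromosome 5 from 1032099 to 1034973, minus strand) had 476367, 468391 and 431165 counts in the scl30a-1 libraries, against 373475, 413667 and 433801 counts in the WT libraries. In CPM it averaged 5741 ± 304 in scl30a-1 and 5204 ± 205 in WT (SD, n = 3 each), and the libraries did not overlap. The log2 fold change of 0.14 (95% interval -0.01 to 0.29, edgeR adjusted p = 0.126) was not called.

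PCK1 (AT4G37870, chromosome 4 from 17802690 to 17806705, minus strand) had 519344, 486532 and 474531 counts in the scl30a-1 libraries, against 426172, 462746 and 503761 counts in the WT libraries. It averaged 6173 ± 135 CPM in scl30a-1 and 5931 ± 125 CPM in WT (SD, n = 3 each), without overlap. In RPKM, which is not TMM-scaled, the libraries overlapped (2341 to 2361 in scl30a-1, 2312 to 2356 in WT). The log2 fold change of PCK1, 0.06, was not called (95% interval -0.08 to 0.20, edgeR adjusted p = 0.489), and it was -0.0102 with upper-quartile scaling. The related gene PCK2 had 0 counts in every library.

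The other enzymes of the cycle were also close between genotypes, apart from a rare malate dehydrogenase. ACO3, an aconitase, had 5085, 4950 and 5195 CPM in the scl30a-1 libraries, against 5520, 5842 and 5728 CPM in the WT libraries. Its libraries did not overlap, and its log2 fold change of -0.17 was just short of the threshold (edgeR adjusted p = 0.0555). It passed in 7 of the 14 other fits tried. The peroxisomal citrate synthases CSY2 and CSY3 were not called (-0.08 and 0.04), nor was PMDH1 (0.06), the main peroxisomal malate dehydrogenase. PMDH2, the second such enzyme, had 501, 533 and 483 counts in the scl30a-1 libraries, against 604, 748 and 703 counts in the WT libraries (log2 fold change -0.47, SE 0.092, edgeR adjusted p = 0.00268).

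**Figure D3:**
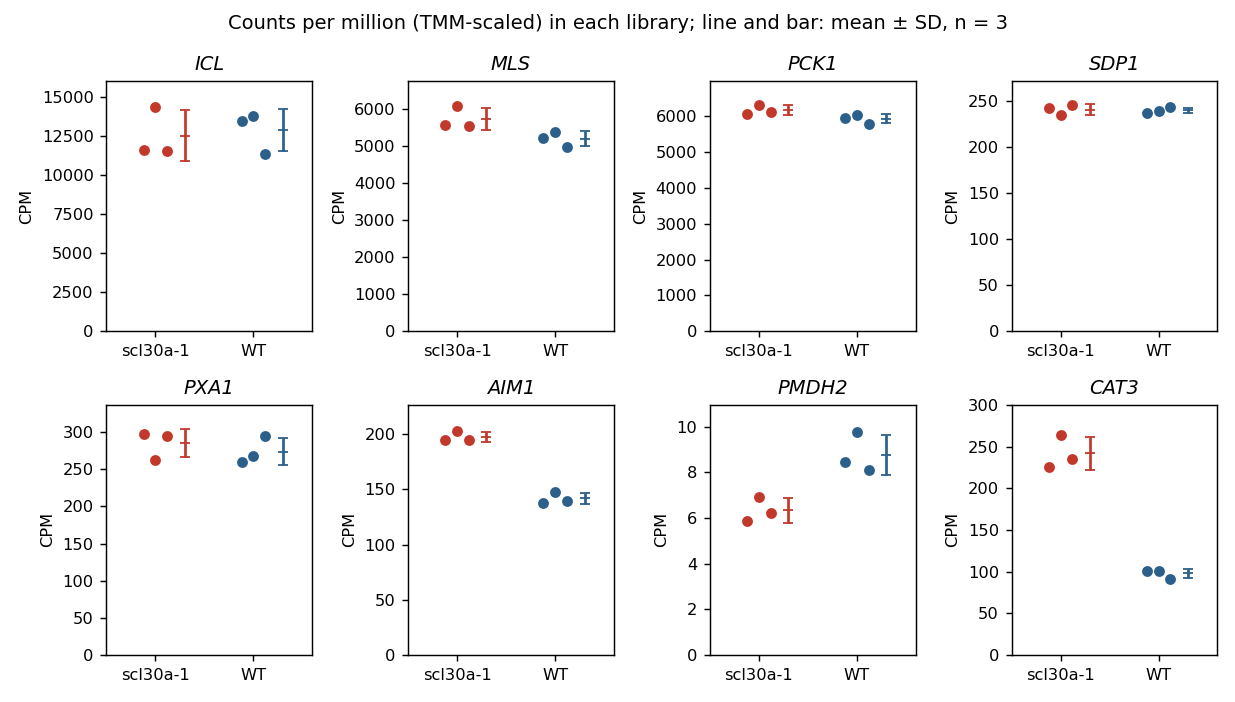
CPM (TMM-scaled, axes from 0) in each of the 3 scl30a-1 libraries (left) and 3 WT libraries (right) for 8 genes, with mean and SD. ICL, SDP1 and PXA1 overlap between genotypes, MLS and PCK1 are separated by little, and AIM1, PMDH2 and CAT3 are clearly separated.

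Carriers and import factors followed with small differences. PNC1 and PNC2 bring ATP into the peroxisome for fatty acid activation. PNC1 was higher in scl30a-1 (log2 fold change 0.15, edgeR adjusted p = 0.0212), a call lost in 5 of the 14 other fits, with an adjusted p up to 0.149 under upper-quartile scaling. PNC2 was not called (-0.05). PXN, a peroxisomal NAD carrier, was lower in scl30a-1 (log2 fold change -0.15, edgeR adjusted p = 0.0221), a call lost in 4 of the 14 other fits, each of which left out a library (adjusted p up to 0.0866). PEX5 and PEX7, the receptors for the peroxisomal targeting signals, and PEX14, their docking partner, had log2 fold changes of 0.04, 0.07 and 0.08. None of these 3 was called.

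The antioxidant enzymes held the largest difference of the set. CAT3 (AT1G20620, chromosome 1 from 7142972 to 7146540, plus strand, TAIR10.1) encodes a catalase, which breaks down hydrogen peroxide. It had 19334, 20351 and 18300 counts in the scl30a-1 libraries, against 7190, 7761 and 7983 counts in the WT libraries. It averaged 242.2 ± 20.0 CPM in scl30a-1 and 97.9 ± 5.28 CPM in WT (SD, n = 3 each), 2.48-fold higher in scl30a-1 with no overlap. On the log2 scale this was 1.31 with an SE of 0.068 and a 95% interval of 1.16 to 1.46 (edgeR adjusted p = 2.8e-07), and it ranged from 1.24 to 1.36 over the 14 other fits. None of its 36-base words occurs in another gene.

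CAT2, the most abundant catalase here, had 3855, 4268 and 3995 CPM in the scl30a-1 libraries, against 3596, 3849 and 3516 CPM in the WT libraries. Its libraries did not overlap in CPM, but they did in RPKM (1391 to 1474 in scl30a-1, 1310 to 1402 in WT). Its log2 fold change of 0.14 (95% interval -0.01 to 0.30, edgeR adjusted p = 0.115) was not called. APX3, an ascorbate peroxidase of the peroxisomal membrane, was lower in scl30a-1 (log2 fold change -0.29, edgeR adjusted p = 0.0121). That call was lost without scl30a-1 library a (adjusted p = 0.056) or without WT library b (0.061). MDAR1, which regenerates ascorbate, had a log2 fold change of -0.01 (95% interval -0.15 to 0.14) and was not called.

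Sequence upstream of the annotated transcript start is shown for the 3 most abundant members that were not called (ICL, MLS and PCK1) and for CAT3, the member that differed most. Each run is the 250 bases before the RefSeq start (TAIR10.1), 5′ to 3′ on the gene's own strand, at chr3:7656054-7656303 (minus) for ICL, chr5:1034974-1035223 (minus) for MLS, chr4:17806706-17806955 (minus) for PCK1 and chr1:7142722-7142971 (plus) for CAT3. Capitals mark matches on either strand to CACGTG (G-box), ACGTGT (core of the ABA-responsive element), CATGCA (core of the RY element of seed genes) or TATAAA, where CACGTG and ACGTGT can overlap.
ICL: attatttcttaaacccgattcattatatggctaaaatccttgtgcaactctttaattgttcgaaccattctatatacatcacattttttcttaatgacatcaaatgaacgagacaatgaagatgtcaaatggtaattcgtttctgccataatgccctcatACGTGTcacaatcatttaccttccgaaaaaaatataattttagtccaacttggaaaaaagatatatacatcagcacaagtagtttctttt
MLS: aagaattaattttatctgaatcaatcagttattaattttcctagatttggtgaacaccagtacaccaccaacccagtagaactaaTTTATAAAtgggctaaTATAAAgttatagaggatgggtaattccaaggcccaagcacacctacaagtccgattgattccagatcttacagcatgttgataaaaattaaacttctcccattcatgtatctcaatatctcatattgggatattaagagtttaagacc
PCK1: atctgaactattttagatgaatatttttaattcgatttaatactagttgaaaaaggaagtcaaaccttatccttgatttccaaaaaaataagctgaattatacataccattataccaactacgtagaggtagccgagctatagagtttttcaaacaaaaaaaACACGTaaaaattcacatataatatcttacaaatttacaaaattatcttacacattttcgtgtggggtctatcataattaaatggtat
CAT3: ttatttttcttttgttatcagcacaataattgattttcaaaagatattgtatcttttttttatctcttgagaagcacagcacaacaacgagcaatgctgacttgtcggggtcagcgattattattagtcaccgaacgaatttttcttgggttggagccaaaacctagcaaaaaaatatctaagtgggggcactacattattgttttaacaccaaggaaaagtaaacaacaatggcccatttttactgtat
The ICL and PCK1 windows each held ACGTGT or its reverse complement, the MLS window held TATAAA, and the CAT3 window held none of the 4 words. Over all members, ACGTGT was found in 4 of 38 windows (10.5%, and 10.5% of 27443 windows of protein-coding genes). CACGTG was found in 4 (10.5%, against 6.49% of all windows), CATGCA in 1 (2.63%, against 8.43%) and TATAAA in 14 (36.8%, against 47.3%). The CACGTG windows belonged to ACX1, CSY3, PNC2 and APX3, of which ACX1 was called higher, APX3 was called lower and the other two were not called. These words were chosen after the values were seen, and a match is a description of the letters only.

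Several enzymes of the pathway are encoded by small families. Grouping the members and their listed relatives into 10 families, after the values were seen, gave 28 genes. The most abundant gene of each family by RPKM was called in 0 of 10 families (SDP1, LACS7, ACX2, MFP2, KAT2, CSY3, PMDH1, ACO3, PNC2 and CAT2), with log2 fold changes from -0.17 to 0.14. With an unadjusted p under 0.05 there was 1 of these 10, ACO3, which DESeq2 called. ACO3 passed in 7 of the 14 other fits, and LACS7 passed with upper-quartile scaling. Of the 18 other genes, 17 were tested and 12 were called, 8 higher and 4 lower in scl30a-1, where 41.7% of all genes tested were called. No less abundant gene was called among the grouped lipases (SDP1 and SDP1L), the acyl-CoA synthetases or the citrate synthases. Listed relatives outside these 10 families were not grouped. Among them, the most abundant PEX11 gene by RPKM, PEX11E, was called (log2 fold change -0.22), but it shares 29.3% of its words with AT3G61060. The most abundant PEX19 gene, PEX19B, was also called (0.38). The most abundant genes of the PEX3, MDAR and PCK pairs, PEX3-2, MDAR4 and PCK1, were not called. The count over families therefore depends on which families were grouped. Among all genes tested with 1000 CPM or more, 19 of 85 (22.4%) were called, and among the 8 members at that level 0 were called.

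Shares within a family do not depend on the scaling between libraries. CAT3 made up 4.49%, 4.73% and 4.52% of the summed catalase RPKM in the scl30a-1 libraries, against 2.21%, 2.08% and 2.06% in the WT libraries. CAT2 held 93.5% ± 0.154 in scl30a-1 and 96.6% ± 0.0751 in WT (SD, n = 3 each). The genotypes were thus fully apart, although CAT2 remained the bulk of catalase transcript in both. Among aconitases, ACO1 held 5.13% ± 0.0834 in scl30a-1 and 3.63% ± 0.0948 in WT. AIM1 held 6.11% ± 0.121 of the multifunctional protein transcripts in scl30a-1 and 4.71% ± 0.111 in WT. PMDH2 held 0.637% ± 0.0256 of the peroxisomal malate dehydrogenase transcripts in scl30a-1 and 0.917% ± 0.0571 in WT. PNC1 held 41.2% ± 0.458 of the nucleotide carrier transcripts in scl30a-1 and 38% ± 0.142 in WT (SD, n = 3 each throughout). Each of these 6 shares gave a two-sided exact permutation p of 0.1, the smallest that 3 against 3 libraries allow, so none can pass 0.05 with or without adjustment over the 28 shares. The LACS6 share, at 46.3% ± 1.32 in scl30a-1 and 46.6% ± 0.178 in WT, overlapped between genotypes.

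**Figure D4:**
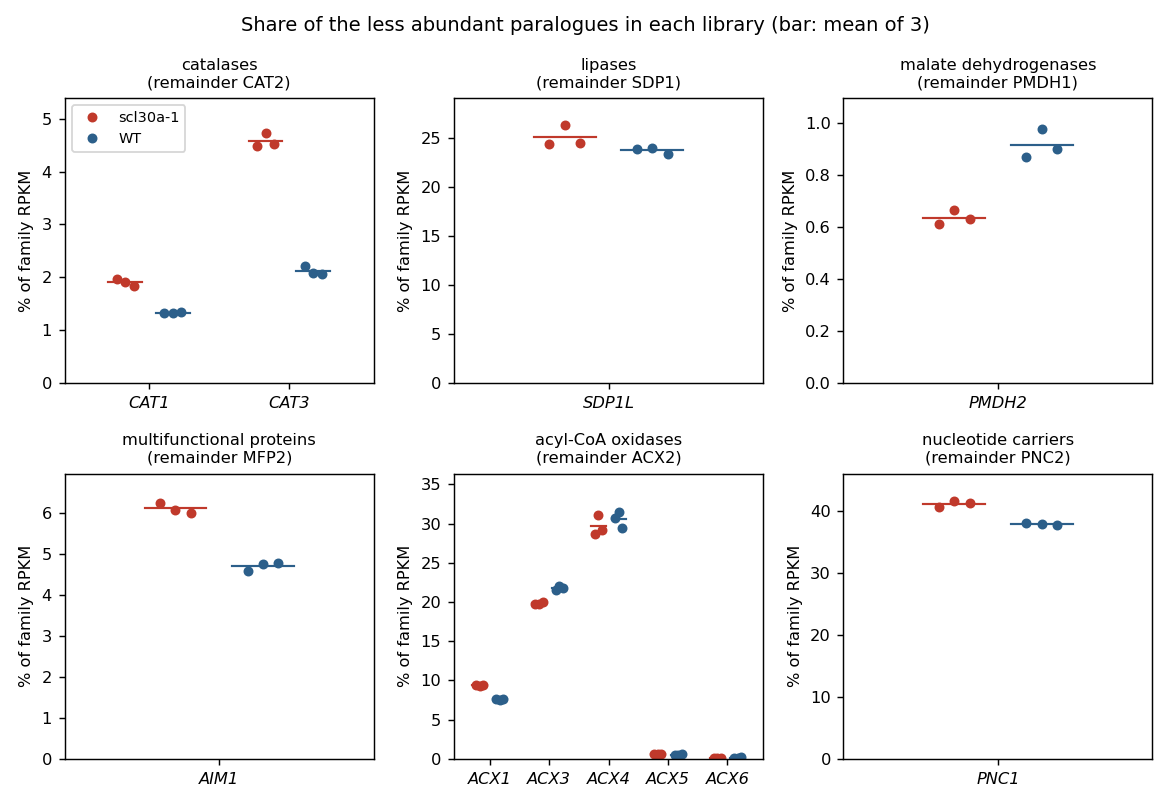
Share of the summed family RPKM held by each less abundant gene, in each of the 3 scl30a-1 libraries (red, left of each pair) and the 3 WT libraries (blue, right), with the mean as a bar, for 6 families; axes start at 0 and differ between panels. CAT3, CAT1, SDP1L, AIM1, ACX1, ACX5 and PNC1 hold larger shares in all scl30a-1 libraries than in any WT library. PMDH2, ACX3 and ACX6 hold smaller ones, and ACX4 overlaps.

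Other genes of oil breakdown and of the peroxisome, were listed apart from the members as 42 loci. Of these, 39 were tested and 13 were called, where 41.7% of all genes tested were called, and their median log2 fold change was 0.04. They divided into 9 higher and 4 lower in scl30a-1 (21.9% and 19.7% of all genes tested), and into 8 and 11 with upper-quartile scaling. The citrate synthase genes CSY1 and CSY5 and the gene PCK2 were not tested, with 0 to 5 counts in any library. A called change of at least 1.5-fold was seen for CAT1 and ACX6. CAT1, another catalase, had 5583, 5443 and 4886 counts in the scl30a-1 libraries, against 2839, 3257 and 3402 counts in the WT libraries (log2 fold change 0.71, edgeR adjusted p = 6.46e-06). ACX6 had 110, 95 and 124 counts in the scl30a-1 libraries, against 185, 199 and 287 counts in the WT libraries (log2 fold change -1.05, edgeR adjusted p = 0.000279). Words that also occur in ACX3 or AT3G06690 make up 3.43% of its 36-base words.

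Of 18 further peroxins, the proteins that build and divide peroxisomes, 3 were higher and 2 lower in scl30a-1, where 21.9% of all genes tested were higher and 19.7% lower. Named after their values were seen, the higher ones were PEX19A (log2 fold change 0.54), PEX19B (0.38) and PEX11C (0.22), and the lower ones were PEX6 (-0.17) and PEX11E (-0.22). The other 13 were not called. The call of PEX6 was lost without scl30a-1 library b or WT library b. The PEX11E value is uncertain, since PEX11E shares 29.3% of its words with AT3G61060, which overlaps it on the opposite strand. Among the remaining calls, also named after their values were seen, higher levels were found for the aconitase ACO1 (0.36), the peroxisomal protease LON2 (0.25), the oxidase ACX5 (0.20) and AT3G14360 (0.31), and a lower level for GLI1 (-0.27), the glycerol kinase that uses the glycerol left by lipolysis. The ACX5 call was lost in 8 of the other fits. The AT3G14360 value is uncertain, since this gene shares 15.1% of its words with AT3G02925.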

How the data were processed

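Poly(A) RNA of germinating seeds was sequenced by the authors in 3 scl30a-1 and 3 WT libraries. Per the file headers, the authors deposited raw read counts per gene, which were used here, and a length-normalised column for each library. Column letters match no single replicate number, so only 1 column per library, the counts, was kept and those 6 columns were not used. Levels per length, planned on them, were computed from the counts, and the planned fit on them was not run. Per the submitters' processing notes the build was TAIR10; the aligner, read length, filters and use of strand are not given in the sources used here. Columns name the genotype and a letter, so libraries were assigned to a genotype only. Of 33602 rows, 1213 without values were left out.

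Counts were tested with edgeR 4.0.16 (R 4.3.3; TMM, filterByExpr with a minimum count of 10, quasi-likelihood F test, genotype as the only term), with Benjamini-Hochberg adjustment over 18736 genes. An adjusted p under 0.05 was called. The SE was taken from the fitted log2 fold change and its F statistic, and 95% intervals were not adjusted. CPM are TMM-scaled. Levels of different genes were compared only by RPKM, computed from the counts, the library totals and RefSeq exon-union lengths (617 genes had none). A share tested between 3 and 3 libraries by exact permutation cannot give a p under 0.1. A floor of 3 counts corresponds to 0.035 to 0.0424 CPM, for counting error only. The fit was tested on simulated data. No 2 libraries agreed within sampling noise (chi-square per degree of freedom at least 5.45).

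The members, gene lists and tests were chosen with earlier results of these data known. Counts in every library were given, by a fixed rule, for ICL, MLS, PCK1, SDP1, PXA1, SCL30A and each member called at 1.5-fold or more; other values were chosen after they were seen. Positions and sequences come from RefSeq TAIR10.1, the RefSeq release of the TAIR10 assembly, by locus identifier. Alternatives were DESeq2 1.42.0, limma 3.58.1 (voom), other scalings and filters, a replicate block and each library left out. The values of 1 gene of the further list are not reported here.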

Additional observations from a re-analysis of the deposited data

How the results depend on the processing

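No member changed direction with a call in any of the 14 other fits. Of the 38 members, 26 kept their side of the threshold in every fit, and of 532 values 500 did, 15 lost a call and 17 gained one. The number of members called was 9 to 15, where 30.9% to 47.7% of all genes tested were called. Members called lower rose to 11 with upper-quartile scaling and 8 without composition scaling, against 5, and were 2 to 6 with a library left out. Members called higher fell to 4 with upper-quartile scaling, against 7. The median log2 fold change of the members tested, 0.05, was -0.0189 with upper-quartile scaling and 0.0014 without composition scaling. Other pathway genes called lower were 11 and 7 in these fits, against 4. The same fits moved the median of all genes tested to -0.065 and -0.0449, and the cause was not tested. The planned fit of limma on the length-normalised columns was not run. Column letters are not replicate numbers. Same-letter libraries deviated together in 2 of 3 pairs (correlations -0.0772, 0.238 and 0.247), and different-letter pairs ranged from -0.402 to 0.233. So few libraries cannot decide whether the letters pair the samples. With the letter as a replicate block 14 members were called, 7 higher and 7 lower, and 8940 genes in all, against 7806. Depth limits KAT5 and PMDH2 most among the members, at 193 to 748 counts per library.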

Other observations

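Some genes of the pathway lie side by side with a relative. CAT3 and CAT1 are neighbours on chromosome 1 (7142972 to 7146540 and 7146636 to 7150180, both on the plus strand), and both were higher in scl30a-1 (log2 fold changes 1.31 and 0.71). ACX3 and ACX6 are also neighbours on chromosome 1 (1922208 to 1926278 and 1926652 to 1930397, both on the plus strand), and both were lower in scl30a-1 (-0.19 and -1.05). ACX3 and ACX6 share some of their 36-base words, and the part of this in their values was not tested. IBR10 and ECI3 are neighbours on chromosome 4 (8304442 to 8305857 and 8306590 to 8307934, both on the minus strand) and neither was called (0.10 and -0.09). Both had their highest CPM in scl30a-1 library b, at 234.6 for IBR10 and 115.6 for ECI3. CSY2 and CSY1 are neighbours on chromosome 3, where CSY2 had 6443 to 6751 counts in scl30a-1 libraries and 6210 to 7267 counts in WT libraries, while CSY1 had at most 5 counts in any library. These neighbours were noticed after the values were seen, and no test of position was made.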
